A study of Mus musculus with 11 samples.

Results

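The regions described here are promoters of noncoding transcripts at which no RBPJ site was found, in the mouse pre-T cell line Beko. Each is a region of histone H3 acetylated at lysine 27 (H3K27ac) that covered the annotated transcription start site (TSS) of a transcript with an NR_ accession, the RefSeq prefix for noncoding transcripts. Each was also marked by the authors as free of overlap with RBPJ, the DNA-binding factor through which cleaved Notch acts. Of 56342 H3K27ac regions on the mouse build mm9, 368 (0.653%) met this rule, or 4.66% of the 7889 regions that covered a TSS. The rule used annotation and the RBPJ mark, and no change in acetylation. H3K27ac was measured by chromatin immunoprecipitation and sequencing in cells kept for 24 h in 0.01 mg/ml apicidin, in 10 mg/ml DAPT (doses as labelled) or in DMSO as the control, each with 2 libraries. Apicidin blocks histone deacetylases, with HDAC3 named in the labels. DAPT inhibits gamma-secretase (abbreviated GSI) and so prevents Notch cleavage. RBPJ was mapped with 2 libraries in the DMSO cells alone, so absence of RBPJ refers to untreated cells, and each condition had 1 input. All libraries came from 1 unmodified cell line, and the labels name no separate cultures, so the p-values measure spread that may be technical.

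H3K27ac marks active promoters and enhancers and is set by acetyltransferases and removed by histone deacetylases. Long noncoding RNAs are transcribed from promoters much like those of coding genes, often next to a coding gene read from the opposite strand. Small nucleolar RNAs (snoRNAs), which guide modification of ribosomal RNA, are mostly cut from introns of host genes. Some of these hosts, such as Gas5 and the Snhg genes, make no protein and serve mainly as carriers. MicroRNAs are short RNAs that repress messenger RNAs through their seed, bases 2 to 8, and they are cut from hairpins in longer transcripts, so the annotated start of a microRNA gene is the start of its hairpin rather than of transcription.

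The 368 regions belonged to 366 gene symbols, with 1600002D24Rik and Gm16119 represented by 2 regions each. RefSeq (GRCm38.p6) gave a current gene for 366 of the regions. Among these were 257 long noncoding RNAs, 43 genes now listed as coding, 24 microRNAs, 23 transcribed pseudogenes and 15 snoRNAs. At the 43 the transcript was noncoding by its NR_ accession, and whether it is still listed so was not examined. Terc (telomerase RNA), Rmrp (the RNA of RNase MRP), the guide RNA Scarna2 and 1 miscellaneous RNA made up the rest of those matched. By spelling, 180 regions carried clone names ending in Rik and 66 carried predicted names beginning with Gm. The regions were strong: their median base mean, the authors' mean of normalised reads over libraries, was 516 (quartiles 233 and 1056, range 19.3 to 9049), against 452 for 6574 coding promoters without RBPJ and 61.3 for all regions. Their median width was 2158.5 bp (range 207 to 21927) against 1884 bp for the coding promoters. The widest and strongest was the region over Mir21, and the region with the lowest base mean lay over Snord42a. The deposited data give no value for a single library, so the levels of single samples are not shown here and the depth of each library is unknown. Spread is carried by the standard error (SE) of each fold change, whose median over the 368 regions was 0.12 for both treatments on the log2 scale. All 13 pre-T markers examined, among them Ptcra, Rag1 and Cd3e, had a region (highest base mean per gene 222 to 12722, median 3475), whereas 4 of 5 B-lineage, 1 of 5 myeloid, 1 of 3 erythroid and 3 of 4 fibroblast and epithelial markers had one. The highest base mean among those other markers was 1245, at a myeloid gene.

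At the border of the rule, the nearest excluded regions stopped 3 bp short of the start of 1500011B03Rik and of Snora81 and 4 bp short of Mtfr1. In the authors' deposited table the Snora81 region had a base mean of only 14.0 and a log2 fold change of 2.51 ± 0.72 (SE) with apicidin. In all, 250 regions free of RBPJ lay within 1 kb of a noncoding start without covering it.

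Sequences are shown for promoters and microRNAs at which acetylation moved in different ways, and are from RefSeq on GRCm38.p6, a later build than that of the regions. A 300-base promoter, with 250 bases before the annotated start and 50 from it on, was found for 251 of the 368 regions. The first set holds 80 bases around the start of snoRNA host genes, with the annotated start at base 41. Capitals mark a C within 3 bases of that start followed by at least 4 pyrimidines, the tract known from genes of the translation machinery, where such a tract was found. Gas5 has 2 annotated starts. The 4 genes shown are hosts that carry a host symbol in the deposited table. Of 9 hosts found in all, 7 had a promoter entry, and Snhg4 and Epb41l4aos had none.
Gas5, first start (chr1:161034561-161034640, plus strand): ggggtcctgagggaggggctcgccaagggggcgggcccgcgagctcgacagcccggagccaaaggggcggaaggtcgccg
Gas5, second start (chr1:161035126-161035205, plus strand): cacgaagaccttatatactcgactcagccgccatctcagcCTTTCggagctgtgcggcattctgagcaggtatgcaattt
Snhg12 (chr4:132308638-132308717, plus strand): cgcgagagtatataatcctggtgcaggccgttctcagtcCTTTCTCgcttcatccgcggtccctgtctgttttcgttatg
Snhg3 (chr4:132353647-132353726, minus strand): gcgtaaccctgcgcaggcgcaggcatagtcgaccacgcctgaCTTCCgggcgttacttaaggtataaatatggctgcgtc
Dancr (chr5:74093020-74093099, plus strand): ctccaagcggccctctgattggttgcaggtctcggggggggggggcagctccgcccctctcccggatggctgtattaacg
Such a tract was found at 33.3% of 9 host promoters (7 genes, all 3 matches being at Gas5, Snhg12 and Snhg3), at 18.2% of 291 promoters of the genes described here, and at 11.5% of all 32851 promoters in the table, and a match in these letters is a description of sequence only.

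The second set holds the 300-base promoters of A630019I02Rik, which had the largest apicidin increase, Gm12409, which moved in opposite directions with apicidin and GSI, and Tug1 and Jpx, which were lower with apicidin. The start is at base 251, and capitals mark each CG.
A630019I02Rik (chr13:93094583-93094882, plus strand): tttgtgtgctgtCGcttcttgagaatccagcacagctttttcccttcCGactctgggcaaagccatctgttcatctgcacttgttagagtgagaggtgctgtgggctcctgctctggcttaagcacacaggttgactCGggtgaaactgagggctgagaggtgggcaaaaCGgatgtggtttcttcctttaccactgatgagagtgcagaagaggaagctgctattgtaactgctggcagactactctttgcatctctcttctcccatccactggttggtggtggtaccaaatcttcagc
Gm12409 (chr4:45764174-45764473, minus strand): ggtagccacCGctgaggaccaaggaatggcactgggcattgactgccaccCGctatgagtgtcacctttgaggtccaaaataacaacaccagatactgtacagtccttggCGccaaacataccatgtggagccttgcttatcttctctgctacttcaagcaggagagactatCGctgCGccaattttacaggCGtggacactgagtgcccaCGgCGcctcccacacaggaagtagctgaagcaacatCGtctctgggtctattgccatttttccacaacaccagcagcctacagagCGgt
Tug1 (chr11:3648765-3649064, minus strand): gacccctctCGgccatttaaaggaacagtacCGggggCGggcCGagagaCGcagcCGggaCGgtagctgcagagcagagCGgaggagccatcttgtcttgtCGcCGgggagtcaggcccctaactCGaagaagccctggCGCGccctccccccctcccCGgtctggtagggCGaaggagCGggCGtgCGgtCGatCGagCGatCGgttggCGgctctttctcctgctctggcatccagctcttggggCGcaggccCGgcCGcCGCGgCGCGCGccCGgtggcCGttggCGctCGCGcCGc
Jpx (chrX:103493308-103493607, plus strand): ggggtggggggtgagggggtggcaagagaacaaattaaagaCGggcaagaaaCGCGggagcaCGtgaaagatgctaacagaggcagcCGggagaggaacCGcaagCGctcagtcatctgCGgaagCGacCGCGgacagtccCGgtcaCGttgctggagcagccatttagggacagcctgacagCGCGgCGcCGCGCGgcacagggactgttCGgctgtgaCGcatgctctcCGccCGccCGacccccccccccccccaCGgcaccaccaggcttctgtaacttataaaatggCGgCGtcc
The ratio of observed to expected CG was 0.21 for A630019I02Rik (4 CG), 0.48 for Gm12409 (10 CG), 0.97 for Tug1 (37 CG) and 0.86 for Jpx (27 CG). The median was 0.70 for the promoters of these noncoding genes and 0.38 for all promoters. It was 0.63 for 39 promoters of genes higher with apicidin and 0.75 for 115 of genes lower. Single promoters went either way: with apicidin Gas5 rose at 0.79 (mean of its 2 starts) and A930003A15Rik fell at 0.19. Searched on both strands of the 300-base windows, GGGCGG was in 46.4% of the promoters of these genes and 35.7% of all promoters, CCAAT in 35.4% and 37.4%, and TATAAA in 9.97% and 13.6%.

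The third set holds mature microRNAs whose start was covered by a region, with the seed in capitals.
miR-17-5p: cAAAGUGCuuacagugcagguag
let-7i-5p: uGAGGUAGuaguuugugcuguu
miR-23a-3p: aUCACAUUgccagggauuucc
miR-210-3p: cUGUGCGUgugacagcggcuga
miR-760-3p: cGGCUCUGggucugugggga
miR-21a-5p: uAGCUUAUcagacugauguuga
Mature sequences were found for 23 of 25 microRNA regions, and their 35 mature arms had 35 distinct seeds, so no seed was shared within the set. In RefSeq the let-7i-5p seed was shared by 10 other mature microRNAs of the mouse, and that of miR-17-5p by 6, which include miR-20a-5p and miR-93-5p.

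Apicidin against DMSO asked which acetylation shifts when deacetylases are inhibited. Far more noncoding promoters were lower than higher. A region was called where the authors' adjusted p (DESeq2 Wald test, Benjamini-Hochberg) was under 0.05: 146 of the 368 regions (39.7%) were lower, 48 (13.0%) were higher and 174 were not called. Over all 56342 regions 14.1% were called lower and 9.69% higher, 23.8% in either direction, and among coding promoters without RBPJ 38.9% were lower and 7.82% higher. The share of lower calls was thus close to that at coding promoters. The median log2 fold change was -0.21 (quartiles -0.48 and 0.14) against -0.24 at coding promoters and 0.0040 over all regions. The authors' normalisation sets where 0 lies: centred on the stronger regions, whose median was -0.10, the split was 69 higher and 110 lower, and with the trend over base mean subtracted it was 73 and 99, so that the share of higher among called regions went from 24.7% to 38.5% and 42.4%. On the same scales coding promoters gave 766 higher and 1868 lower, and 855 and 1682. The calls are thus relative to the bulk of regions throughout. The 47 noncoding promoters that did overlap RBPJ had 5 higher and 19 lower (median -0.20).

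**Figure D1:**
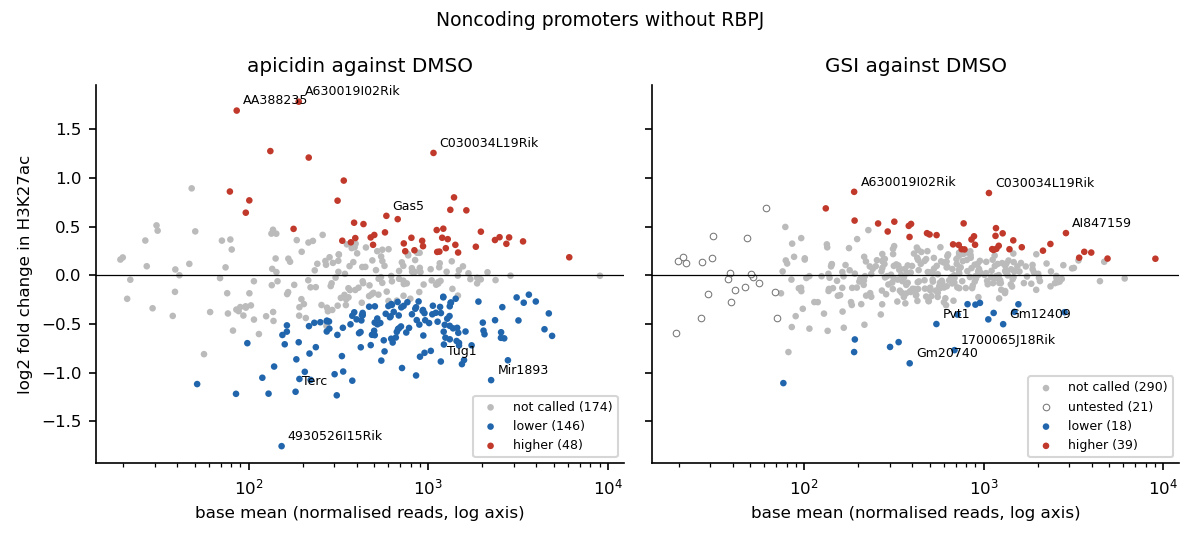
Log2 fold change in H3K27ac (vertical) against base mean in normalised reads (horizontal, log axis) for the 368 noncoding promoters without RBPJ, with apicidin on the left and GSI on the right; each point is a region, coloured by the authors' call. Apicidin calls are mostly below 0 (146 lower, 48 higher), whereas GSI calls are fewer and mostly above 0 (39 higher, 18 lower).

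**Figure D2:**
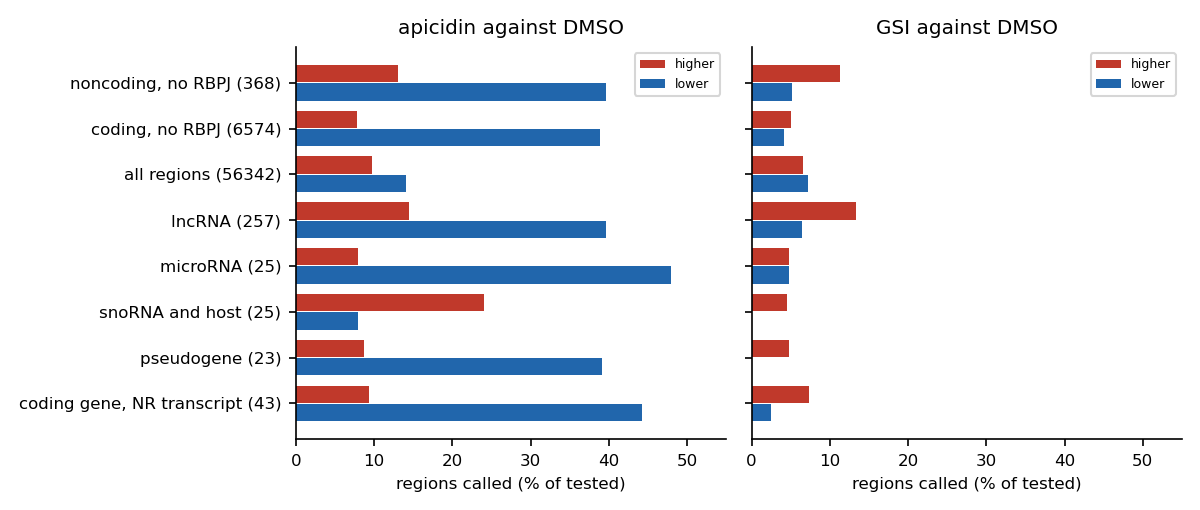
Share of tested regions called higher or lower (horizontal, %) for noncoding promoters without RBPJ, coding promoters without RBPJ, all regions, and kinds of noncoding gene, with the number of regions in brackets. With apicidin the lower bar is the longer one in every row but that of snoRNA genes and hosts (6 higher, 2 lower).

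Of 25 regions of snoRNA genes and their noncoding hosts, 6 were higher with apicidin, 2 lower and 17 not called, with a median of 0.15, while the other 343 regions had 42 higher and 144 lower and a median of -0.24. Centring gave 11 higher and 1 lower among the 25, and subtracting the trend gave 10 higher. The 25 include 4 hosts that the deposited table lists under clone names and that were matched by their current RefSeq symbols after the data had been seen; without them 5 of 21 regions were higher and 2 lower (median 0.16). Whether the group as such differs from other promoters was not tested, since its genes were grouped with earlier results known.

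Of the 9 host promoters 3 were higher with apicidin and 0 lower by DESeq2 (0 also at an unadjusted p under 0.05), and 7 values were above 0. Gas5 (chromosome 1, 162965270 to 162968860), a host of many snoRNAs known for rising in growth-arrested cells, rose by 0.61 ± 0.11 in the authors' deposited table (adjusted p = 1.2e-06). Snhg4 (chromosome 18, 35712559 to 35715481) rose by 0.53 ± 0.13 (adjusted p = 0.00054) in the authors' deposited table. Snhg17, listed as 9430008C03Rik, rose by 0.34 ± 0.13 (adjusted p = 0.039) in the authors' deposited table. The other hosts did not pass: the authors' deposited table gave 0.26 ± 0.11 (adjusted p = 0.073) for Snhg12, 0.09 ± 0.14 for Dancr and 0.03 ± 0.09 for Snhg3. The remaining 3, also under clone names, had 0.05 ± 0.12 (Snhg16), -0.06 ± 0.10 (Snhg20) and -0.15 ± 0.13 (Epb41l4aos) in the authors' deposited table. Of the same list, Snhg5 and Zfas1 fell outside the rule because their start regions overlapped RBPJ. The nearest regions of Snhg1 and Snhg7 lay 30 and 6310 bp from the start. Snhg12 was called higher once values were centred or the trend was subtracted. The tract of C and pyrimidines shown above was found at Gas5, which rose, and at Snhg12 and Snhg3, which were not called, but not at Snhg17, which rose too. With GSI the 9 hosts lay between -0.29 and 0.09 in the authors' deposited table and DESeq2 called 0 (1, Epb41l4aos, at an unadjusted p under 0.05). Apicidin and GSI differed by 0.67 at Gas5 (adjusted p = 0.0014) and by 0.59 at Snhg4 (adjusted p = 0.027), by the test of the difference described further on.

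The regions over snoRNA genes mostly fall within a host, so they report the host's promoter or its gene body. Snord22, within Snhg1, rose by 0.86 ± 0.28 (adjusted p = 0.012) in the authors' deposited table, at a low base mean of 78.7. Snord72, within the ribosomal protein gene Rpl37, rose by 0.41 ± 0.12 (adjusted p = 0.0034) in the authors' deposited table. Snord87, within Snhg6, rose by 0.31 ± 0.12 (adjusted p = 0.036) there. The lower ones were Snora7a within Rpl32, which fell by 0.37 ± 0.10 (adjusted p = 0.0018), and Snord61 within Rbmx, which fell by 0.27 ± 0.10 (adjusted p = 0.039), both in the authors' deposited table. The Snord61 call was lost on centring. Hosts coding for ribosomal proteins thus appeared on both sides. Snora70 within Rpl10 had the largest value of the group, 0.89 ± 0.36, in the authors' deposited table, but was not called (adjusted p = 0.051) at a base mean of 48.2. Snora74a lies within Snhg4, and its region starts 193 bp from that of the host. Its value of 0.43 ± 0.20 in the authors' deposited table (adjusted p = 0.11) is therefore not independent of Snhg4. The regions of Snord1a and Snhg16 likewise lay 344 bp apart, and neither was called with apicidin.

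**Figure D3:**
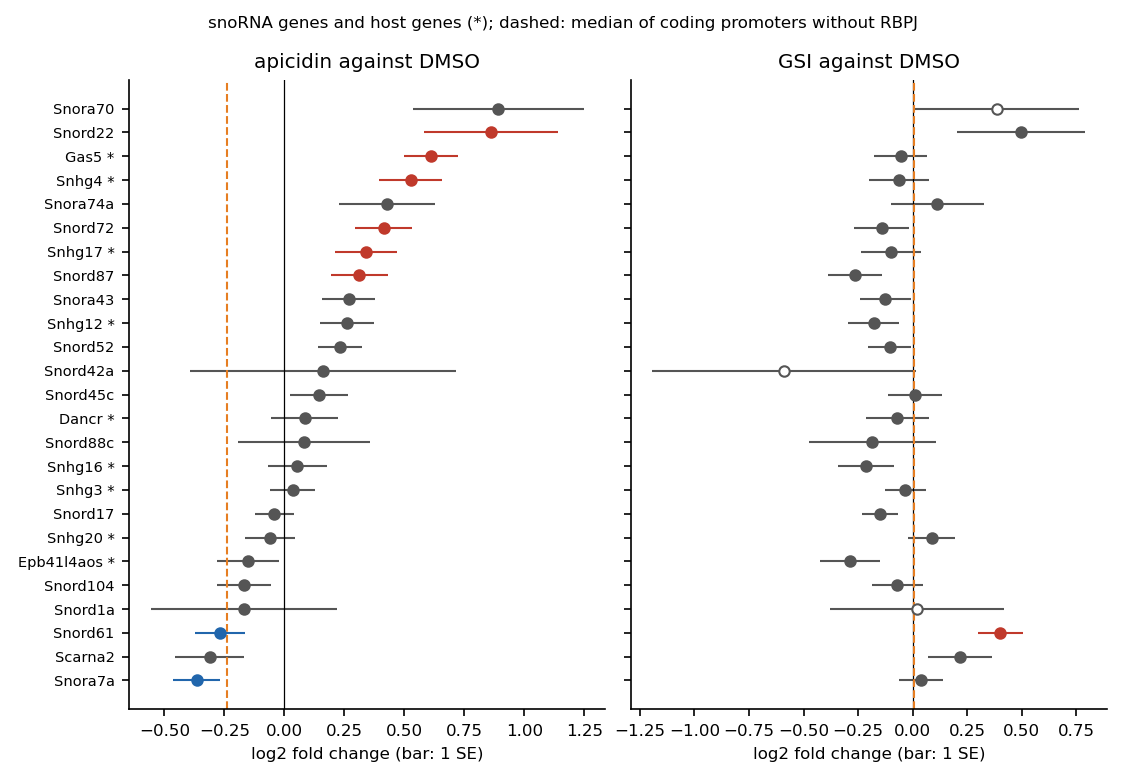
Log2 fold change (horizontal, bars 1 SE) at 16 snoRNA gene regions and 9 host promoters (asterisks; current symbols for hosts under clone names), with apicidin on the left and GSI on the right; red and blue are regions called higher and lower, grey not called, open untested, and the dashed line is the median of coding promoters without RBPJ (-0.24 and 0.0050). Of the 25 apicidin values 17 lie above 0, and with GSI only Snord61 is called.

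A coding promoter region lay within 10 kb of 5 of the hosts. The Zbtb37 promoter, whose region lies 100 bp from that of Gas5 and which is read from the opposite strand, fell by 0.64 ± 0.13 where Gas5 rose by 0.61 ± 0.11, in the authors' deposited table. Rcc1, 4281 bp from the Snhg3 region, fell by 0.41 ± 0.12 in the authors' deposited table, and Matr3, an RBPJ-overlapping promoter 3499 bp from Snhg4, fell by 0.44 ± 0.08. Rab42, 4444 bp from Snhg12, was not called (0.16 ± 0.18) in the authors' deposited table, and nor was Snhg12. Beside Snhg16, Gm11744 at 6069 bp rose by 0.27 ± 0.07 in the authors' deposited table. The difference between neighbours was not tested. With GSI, Zbtb37 and Matr3 were not called and Rcc1 fell by 0.41 ± 0.12 in the authors' deposited table. Over all 84 noncoding promoters with a coding promoter region within 10 kb there were 96 pairs. With apicidin 5 pairs were higher in both, 10 lower in both and 5 opposite, 4 of these with the noncoding member higher. In 32 pairs neither side was called. The noncoding member alone was higher in 11 and lower in 10, and the coding one alone higher in 7 and lower in 16. Whether neighbours matched or opposed each other more often than unrelated promoters was not tested.

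**Figure D4:**
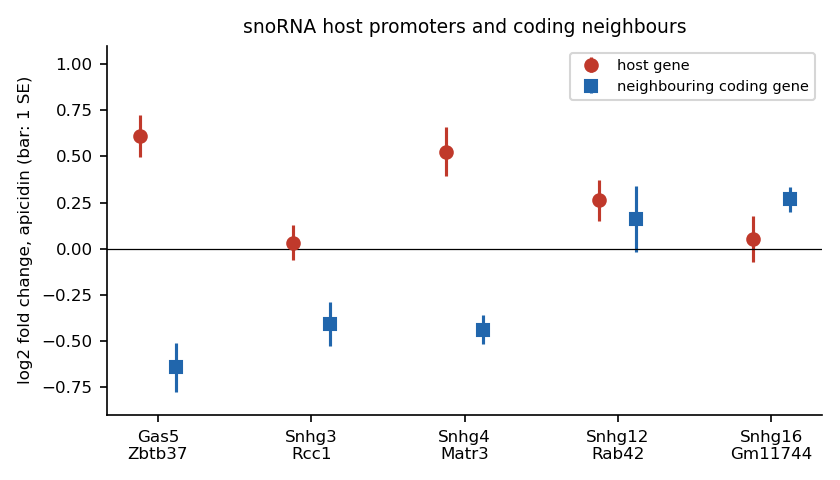
Log2 fold change with apicidin (vertical, bars 1 SE) at the 5 snoRNA host promoters that had a coding promoter region within 10 kb (circles) and at that coding neighbour (squares). Gas5 and Snhg4 lie above 0 with Zbtb37 and Matr3 below it, Snhg3 lies near 0 with Rcc1 below it, Snhg12 and Rab42 were not called, and Snhg16 lies near 0 with Gm11744 above it.

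Of 5 promoters of nuclear and structural RNAs 3 were lower with apicidin and 2 not called, the same counts as on centring and with the trend subtracted. The median was -0.35. Beside these 5, 39.7% of all 368 promoters and 38.9% of coding promoters without RBPJ were lower, and whether the list differs was not tested. Terc (chromosome 3, 96217505 to 96218778), which encodes the template RNA of telomerase, fell by 1.19 ± 0.19 (adjusted p = 6.51e-09) in the authors' deposited table. Jpx (chromosome X, 100686929 to 100689857), an activator of Xist in X inactivation, fell by 0.69 ± 0.11 (adjusted p = 3.77e-09) in the authors' deposited table. Malat1 (chromosome 19, 5795409 to 5807395), an abundant RNA of nuclear speckles, fell by 0.27 ± 0.06 (adjusted p = 1.92e-05) in the authors' deposited table. Rmrp was not called (-0.26 ± 0.11, adjusted p = 0.084) in the authors' deposited table. Firre, an X-linked RNA of nuclear organisation listed as 6720401G13Rik, was not called either, with -0.35 ± 0.25 for apicidin and -0.53 ± 0.27 for GSI in the authors' deposited table, at a base mean of 85.5. Of its 29 further regions 8 were higher and 1 lower with apicidin. Of the same list, Xist, Tsix, Meg3, Miat and Rn7sk had no region assigned, and Neat1, Ftx, Kcnq1ot1 and Rpph1 had regions but none over the start.

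Of 6 promoters of long noncoding RNAs described in lymphocytes, p53 or stress responses 3 were lower with apicidin and 3 not called (median -0.28). Here too the share over all 368 promoters was 39.7% lower, and that of coding promoters without RBPJ 38.9%, with no test of the list. Tug1 (chromosome 11, 3547812 to 3549885) fell by 0.88 ± 0.10 (adjusted p = 2.37e-18) in the authors' deposited table, at a CG-rich promoter read away from the coding gene Morc2a. Dleu2 (chromosome 14, 62297867 to 62304369), the host of a tumour-suppressing microRNA pair, fell by 0.46 ± 0.07 (adjusted p = 2.43e-09) in the authors' deposited table. 2900097C17Rik, now Norad, a cytoplasmic RNA that binds Pumilio proteins, fell by 0.45 ± 0.13 (adjusted p = 0.0040) in the authors' deposited table, a call lost with the trend subtracted. Pvt1, the neighbour of Myc, had -0.02 ± 0.11 (adjusted p = 0.93) with apicidin in the authors' deposited table. Trp53cor1, a p53 target listed as Gm16197, had -0.10 ± 0.21 there, and Morrbid, which restrains the death gene Bcl2l11 and is listed as Gm14005, had 0.23 ± 0.13 (adjusted p = 0.21). Morrbid was called higher on centring and with the trend subtracted. Firre, Trp53cor1 and Morrbid were matched by current symbol after the data had been seen.

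Of 25 microRNA regions 12 (48.0%) were lower with apicidin, 2 higher and 11 not called, with a median of -0.27, beside 39.7% lower among all 368 promoters and 38.9% among coding promoters. Centring gave 6 lower, beside 110 of the 368, and subtracting the trend gave 5, beside 99, with 2 higher both times. Mir1893 (chromosome 18, 6487539 to 6491652), within Epc1, fell by 1.08 ± 0.08 (adjusted p = 4.32e-40) in the authors' deposited table. Mirlet7i (chromosome 10, 122420173 to 122425235), of the let-7 family that restrains proliferation, fell by 0.60 ± 0.08 (adjusted p = 1.74e-12) in the authors' deposited table. Mir23a (chromosome 8, 86730556 to 86734881) fell by 0.49 ± 0.07 (adjusted p = 5.29e-10) in the authors' deposited table. Mir210 (chromosome 7, 148405021 to 148407703), known for its induction by hypoxia, fell by 0.43 ± 0.11 (adjusted p = 0.0012) in the authors' deposited table. Mir760 fell by 0.86 ± 0.18 (adjusted p = 2.04e-05) in the authors' deposited table, at a base mean of 185. The others that were lower, Mir301b, Mir17, Mir1943, Mir1956, Mir3075, Mir5133 and Mir5135, lay between -0.58 and -0.27 in the authors' deposited table. In RefSeq 18 of the 25 microRNA genes overlapped another gene, and the values then belong to that gene's promoter or body as much as to the hairpin. Both higher ones did: Mir5098, within Rest, rose by 0.28 ± 0.08 and Mir5114, within the desaturase gene Scd2, by 0.77 ± 0.25 in the authors' deposited table. The Rest promoter region, 1102 bp from that of Mir5098, went the other way with apicidin (-0.28 ± 0.08, called lower). That of Scd2, which overlaps RBPJ and lies 828 bp from Mir5114, was higher (0.15 ± 0.05). Mir21, within Vmp1, had -0.0048 ± 0.05 with apicidin (adjusted p = 0.96) and rose by 0.17 ± 0.05 with GSI (adjusted p = 0.010) in the authors' deposited table, a small change seen as different from 0 at the strongest of the 368 regions. Mir17, the first hairpin of the proliferation-linked miR-17-92 cluster (chromosome 14, 115439291 to 115443294), fell by 0.45 ± 0.11 with GSI (adjusted p = 0.00041) and by 0.31 ± 0.10 with apicidin (adjusted p = 0.014) in the authors' deposited table. Its apicidin call was lost on centring, and it was the only microRNA region called by both treatments.

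**Figure D5:**
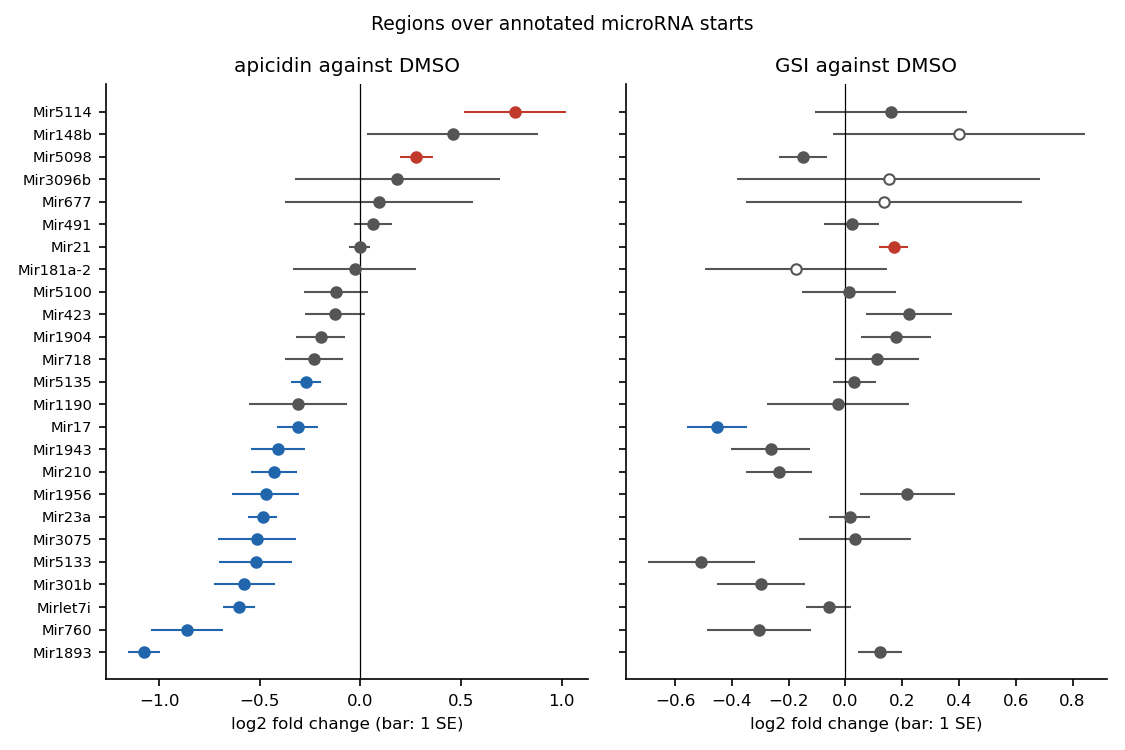
Log2 fold change (horizontal, bars 1 SE) at the 25 regions over microRNA starts, with apicidin on the left and GSI on the right; red and blue are called higher and lower, grey not called and open untested. With apicidin 12 regions are lower and 2 higher, and with GSI Mir21 is higher and Mir17 lower.

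Among all noncoding promoters whose base mean reached the median, the largest increase with apicidin was at C030034L19Rik (chromosome 3, 9400449 to 9404802), a long noncoding RNA within Zfp704, which rose by 1.26 ± 0.09 (adjusted p = 3.21e-40) in the authors' deposited table. It also rose with GSI, by 0.84 ± 0.09 (adjusted p = 6.27e-17) in the authors' deposited table, the largest GSI increase at these base means. It was followed in the authors' deposited table by Gm5547 with 0.80 ± 0.08, A530088E08Rik, read from the strand opposite Rasal3, with 0.67 ± 0.08, and Gm11529 with 0.67 ± 0.08. Gm11529 had 6 further regions, of which 4 were higher. After Gas5 came 5730408K05Rik (0.58), 2310001H17Rik (0.48), 4930417O13Rik (0.46), 2610306M01Rik (0.45), which starts opposite the kinase gene Aak1, and 2810410L24Rik (0.44), as log2 fold changes of the authors' deposited table.

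The largest decreases at such base means lay close together. After Mir1893 the authors' deposited table listed Gm13363, a pseudogene (-1.03 ± 0.10), 6030408B16Rik, now the coding gene Smim41 (-0.95 ± 0.10), and Gm20337 (-0.91 ± 0.09). Tug1, Gm15787, which starts opposite Golga3, A930003A15Rik, the pseudogene Atp6v0c-ps2, 4930520O04Rik and Gm10649 followed with log2 fold changes between -0.88 and -0.80 in the authors' deposited table. Below the median base mean the changes reached further. A630019I02Rik (chromosome 13, 93863273 to 93865558), within Cmya5, rose by 1.78 ± 0.19 (adjusted p = 5.56e-18) in the authors' deposited table. AA388235 (chromosome 17, 34118306 to 34118971) rose by 1.69 ± 0.30 (adjusted p = 3.16e-07) in the authors' deposited table. 4930526I15Rik, on an unplaced contig of chromosome 9, fell by 1.75 ± 0.23 (adjusted p = 1.25e-12) in the authors' deposited table; its symbol has a further region elsewhere, so reads may be split between copies and the value is uncertain. Among called promoters 5 rose and 13 fell by at least 1 on the log2 scale.

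Calls were also counted by the setting of a promoter. By RefSeq, 84 regions had the start of a coding gene on the opposite strand within 1 kb, and of these 41 were lower and 10 higher with apicidin (median -0.32). The 167 without such a partner had 60 lower and 23 higher (median -0.10), and 117 had no promoter in the table. Of the 184 narrower regions (up to 2158 bp) 66 were lower and 9 higher, and of the 184 broader ones 80 were lower and 39 higher. The median change was -0.30 for the narrower and -0.09 for the broader regions. Signal differed too, with median base means of 237 and 1033 and median SEs of 0.17 and 0.09. With the trend subtracted the narrower regions had 48 lower and 17 higher calls. The broader ones had 51 lower and 56 higher, so slightly more higher than lower calls. By CG content, the 84 promoters of lowest observed to expected ratio (up to 0.49) had 28 lower and 15 higher (median -0.07), and the 84 of highest ratio (from 0.81) had 39 lower and 10 higher (median -0.28). The 83 of middle ratio had 34 lower and 8 higher (median -0.24), so higher calls were fewest in the middle. The settings overlapped, since 52 of the promoters of highest ratio and 4 of those of lowest had an opposite coding start. These splits were made with the results known and are given without a test.

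GSI against DMSO asked which acetylation depends on gamma-secretase in the absence of RBPJ at the promoter. Fewer noncoding promoters were called than with apicidin, and more were higher than lower. The authors' table gives no adjusted p for regions with a base mean under 72.1, which left 347 tested and 21 untested. Of the 347, 39 (11.2%) were higher, 18 (5.19%) lower and 290 not called. Over all 25756 tested regions 6.62% were higher and 7.17% lower, 13.8% in either direction. At coding promoters without RBPJ 5.08% were higher and 4.09% lower. The share not called was 83.6% here, 86.2% over all tested regions and 90.8% at coding promoters without RBPJ. These shares were not compared by a test. The median was 0.0087, against 0.0050 at coding promoters. Of the 39 higher regions 19 were among the 92 of highest base mean, where coding promoters of like strength had 166 of 1178 higher. Opposite coding starts accompanied 7 higher and 1 lower of 83 tested regions, and the promoters without such a start had 23 higher and 12 lower of 158. In the highest group of CG ratio 6 of 82 tested promoters were higher and 0 lower by DESeq2 (3 lower at an unadjusted p under 0.05). The lowest group had 10 higher and 7 lower with 5 untested, and the middle group 14 higher and 6 lower with 3 untested.

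After C030034L19Rik, the largest GSI increases at such base means were E130215H24Rik (chromosome 2, 150492400 to 150494288), which starts opposite the acetyl-CoA synthetase gene Acss1 and rose by 0.53 ± 0.10 (adjusted p = 6.25e-06), and 4930478L05Rik (chromosome 16, 78559100 to 78565330), which rose by 0.48 ± 0.08 (adjusted p = 3.69e-07), both in the authors' deposited table. The coding promoter of D16Ertd472e, 8182 bp from 4930478L05Rik, was higher as well (0.25 ± 0.09). AI847159 rose by 0.43 ± 0.06 (adjusted p = 7.06e-10) in the authors' deposited table. Gm6225, within the transcription factor gene Crem, rose by 0.43 ± 0.09 in the authors' deposited table. I730030J21Rik, 4930578M01Rik, Snord61, 2810013P06Rik, which starts opposite Ankrd11, and 2900008C10Rik, now the corepressor gene Bcor, rose by 0.36 to 0.41 in the authors' deposited table.

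The GSI decreases were led by 1700065J18Rik (chromosome 1, 194666458 to 194669407), which fell by 0.77 ± 0.11 (adjusted p = 1.69e-10) and had 0.04 ± 0.10 with apicidin in the authors' deposited table. Pvt1 (chromosome 15, 61869191 to 61871664) fell by 0.50 ± 0.12 with GSI (adjusted p = 0.00042) in the authors' deposited table. Gm12409, 6030408B16Rik, Gm10818, now Tnk2os, 5830418P13Rik, AW046200, 4930520O04Rik, Gm20098 and Gm10649 fell by 0.28 to 0.50 in the authors' deposited table, and the Gm10649 call was lost when all regions were adjusted together. Among weaker regions, chosen here after their values were seen, 4930568K20Rik (chromosome 5, 124678993 to 124679777, now Pitpnm2os1) fell by 1.11 ± 0.30 (adjusted p = 0.0026) in the authors' deposited table. All 6 of its tested further regions fell too. Gm20740 (chromosome 15, 63309500 to 63312032) fell by 0.90 ± 0.14 (adjusted p = 4.08e-09) in the authors' deposited table. Of its 110 further regions 33 were tested, 13 of them lower. At both of these symbols the decrease thus recurred over regions of 1 locus, which are not independent.

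Apicidin and GSI share the DMSO libraries, so their values are set side by side and their difference was tested per region, as the difference of both log2 fold changes over the root of their summed squared SEs, with adjustment over all 56342 regions. Of the 368 promoters 97 lay lower with apicidin than with GSI and 23 lay higher. Over all regions 5.6% were lower and 3.01% higher, 8.61% in all, and at coding promoters without RBPJ 1411 and 234 of 6574 were. The largest difference upward at any base mean was AA388235, at 1.37 ± 0.44 (adjusted p = 0.027). 9330133O14Rik had 1.21 ± 0.17 with apicidin against 0.19 ± 0.19 with GSI in the authors' deposited table (difference adjusted p = 0.0017). The coding promoter of Mvd, an enzyme gene of cholesterol synthesis 134 bp from it, was higher with both treatments, at 0.91 ± 0.22 and 0.66 ± 0.22 in the authors' deposited table. A630019I02Rik rose by 0.86 ± 0.21 with GSI, less than with apicidin (difference 0.92 ± 0.28, adjusted p = 0.018). 4930465M20Rik (0.97 with apicidin, 0.06 with GSI in the authors' deposited table) and Gm12409 came next. The largest downward differences were at 4930526I15Rik, Mir1893, Gm20257, 1700120K04Rik and BB557941. They lay between -1.70 and -1.16, and DESeq2 called none of the 5 with GSI.

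Over all regions, apicidin and GSI both called 2286 of the 25756 tested with both. Of these, 989 were higher in both, 1003 lower in both, 171 lower with apicidin and higher with GSI, and 123 the reverse. Coding promoters without RBPJ had 345 of 6333, at 109, 144, 79 and 13 in the same order. Both treatments called 34 of the 347 noncoding promoters. Among them 9 were higher in both, 10 lower in both, 13 lower with apicidin and higher with GSI, and 2 the reverse. The 2 were 5830418P13Rik (chromosome 9, 103323346 to 103337582), within Bfsp2, with 0.39 ± 0.06 and -0.38 ± 0.07, and Gm12409 (chromosome 4, 45775692 to 45783849) with 0.37 ± 0.08 and -0.50 ± 0.09, in the authors' deposited table. Their differences were 0.77 ± 0.09 (adjusted p = 1.42e-13) and 0.87 ± 0.12 (adjusted p = 1.79e-10). Among the 13, Malat1 had -0.27 ± 0.06 with apicidin and 0.23 ± 0.06 with GSI (adjusted p = 0.00058) in the authors' deposited table. Gm6225 had -0.45 ± 0.09 and 0.43 ± 0.09, and 4930578M01Rik -0.32 ± 0.08 and 0.40 ± 0.09, in the authors' deposited table, the apicidin call of the latter being lost with the trend subtracted. Apicidin and GSI thus stood apart at Malat1 by -0.50 ± 0.08 (adjusted p = 3.11e-08) and at Gm6225 by -0.88 ± 0.13 (adjusted p = 1.27e-09).

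The regions away from the start did not share the tilt of the promoters. The table assigned 1804 further regions to 259 of the 366 symbols and none to 107. Of these 166 were higher and 162 lower with apicidin (median 0.05), and 49 were higher and 64 lower of 696 tested with GSI. Their median base mean was 51.6, against 516 at the promoters, so strength differed along with position. Malat1 had 9 further regions, all not called with apicidin, and Pvt1 had 8, with 2 higher and 1 lower with apicidin and none called of 2 tested with GSI. 4930465M20Rik had 67, with 9 higher and 3 lower with apicidin, and 4 lower of 26 tested with GSI.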

How the data were processed

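H3K27ac was profiled in 6 ChIP-seq libraries of Beko cells, with 2 for RBPJ and 3 inputs (11 in all). Per the submitters' processing notes, the authors used FastQC, Bowtie2, SAMtools and deepTools with build mm9, the versions, region caller and counter being not given in the sources used here. Values came from the authors' deposited table of 56342 regions, which per the file headers holds DESeq2 output for each treatment. The base mean is a deposited signal, the mean of normalised counts. The log2 fold changes and their SEs, the Wald score, the p-values and the adjusted p-values are the authors' own, as deposited. The reference of the fold changes is not named in the headers and was taken to be DMSO. The Wald score equalled fold change over SE within 0.175%, and adjusting the deposited p-values again gave the deposited adjusted values within 5.4e-07 (apicidin) and 1.03e-06 (GSI). The RBPJ mark and the distance to a TSS are the authors' deposited values, with the minimum overlap not given in the sources used here.

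Computed here, with Python 3.11.15, pandas 2.3.3, numpy 2.4.6 and scipy 1.17.1, were the counts, medians and the difference of both treatments. Its SE is an upper bound because the DMSO libraries are shared. The test was run on simulated fold changes, drawn independently for each treatment with the deposited SEs taken as true. That simulation held neither the shared DMSO libraries nor error in the SEs, so it checks the computation and not the test in these data. Depth per library is unknown. Coding promoter neighbours came from the deposited table, and opposite starts, overlapping genes and sequences from RefSeq (GRCm38.p6), matched by accession (348 regions), symbol (11) or synonym (7), with 2 unmatched. The promoters, gene lists and splits were chosen with earlier results of these data known. Genes were named by rule: for each treatment the 10 largest called changes each way at or above the median base mean, list members (matched by table symbol and, chosen after the data had been seen, also by current RefSeq symbol), the 5 clearest opposite calls and the 5 largest differences each way; others are said to be chosen after their values were seen, or belong to the snoRNA, microRNA or nearby regions described. Alternatives were an adjusted p under 0.01, a minimum change of 1 (log2), no base mean filter, centring on stronger regions and subtracting the median over 50 bins of base mean. RefSeq matched no mature sequence to 2 microRNA regions.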

Additional observations from a re-analysis of the deposited data

How the results depend on the processing

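The medians over all 368 promoters and the calls of named promoters kept their direction under the alternatives run. So did the counts, except those with GSI at a minimum change of 1 (log2), which are given below. The broader 184 regions did not keep theirs with apicidin. They went from 39 higher and 80 lower (median -0.09) to 56 and 51 (median 0.05) with the trend over base mean subtracted. On centring their median was 0.01. With an adjusted p under 0.01, GSI gave 21 higher promoters and the difference of treatments 13 above 0. With a called change of at least 1 (log2), apicidin kept 5 higher and 13 lower promoters, GSI 0 higher and 1 lower, and the difference 2 above and 7 below 0. The 0 stands beside 39 higher by the authors' DESeq2 test without that minimum. Over all regions that minimum kept 1944 higher and 1564 lower of 56342 with apicidin, and 137 and 164 of 25756 tested with GSI. Centring on the stronger regions gave 37 promoters above 0 for the difference. With the trend over base mean subtracted, 73 were higher with apicidin at a median of -0.0878, and 43 above and 57 below 0 for the difference. For these settings the cause was not tested. Without the base mean filter 30 promoters were higher and 16 lower with GSI. Of 124 results of named promoters, called or not, 117, 117, 123 and 114 kept their side of the threshold under the stricter p, centring, no filter and the trend, respectively. No paired analysis was possible because the deposited table holds no value per library, and for the same reason no library could be left out. The mean signal limits what could be called: among the 92 weakest promoters 21 had no GSI test.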
